A study of Mus musculus with 8 samples.

Results

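Wild-type mouse embryos of embryonic day 7.5 were collected as 2 pools for RNA, and the pools differed in how far their embryos had developed. The arrays described here were chosen by sample title: wild-type pool 1 and wild-type pool 2, each on 1 U74Av2 and 1 MOE430v2 Affymetrix array, which makes 4 of the 8 arrays of the series. Pool 1 held 53 embryos, of which 17 were at the head-fold stage, 7 at the neural plate stage, 19 at the late-streak stage and 10 at the mid-streak stage. Pool 2 held 50 embryos, with 7 at head-fold, 7 at neural plate, 22 at late-streak and 14 at mid-streak. Head-fold embryos therefore made up 32.1% of pool 1 and 14% of pool 2, and mid-streak embryos 18.9% and 28%, so that pool 2 was the younger.

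Both pools came from timed matings of ICR mice with the sexes mixed, and no agent is named, and the region outside the embryo proper was cut off before extraction. The other 4 arrays hold 2 pools of Foxa2 null embryos of the same day, made by tetraploid complementation from Foxa2 null embryonic stem cells, whose visceral endoderm comes from a wild-type tetraploid host. By the labels the Foxa2 null arrays on MOE430v2 are ICR too. Foxa2 null pool 1 had the same stage counts as wild-type pool 1 in the study's staging record, which was used as given and could not be checked from the arrays, and Foxa2 null pool 2 held 48 embryos with 16 at head-fold, 5 at neural plate, 19 at late-streak and 8 at mid-streak. By that record the Foxa2 null pools were nearly equal in staging, and the difference between them is given beside the main results as a measure of how far pools of like staging lie apart. They differ from the wild-type pools in genotype and origin. With 1 pool per stage mix there was no replicate of either mix and no test, and stage cannot be told apart from anything else that differed between the pools.

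**Figure D1:**
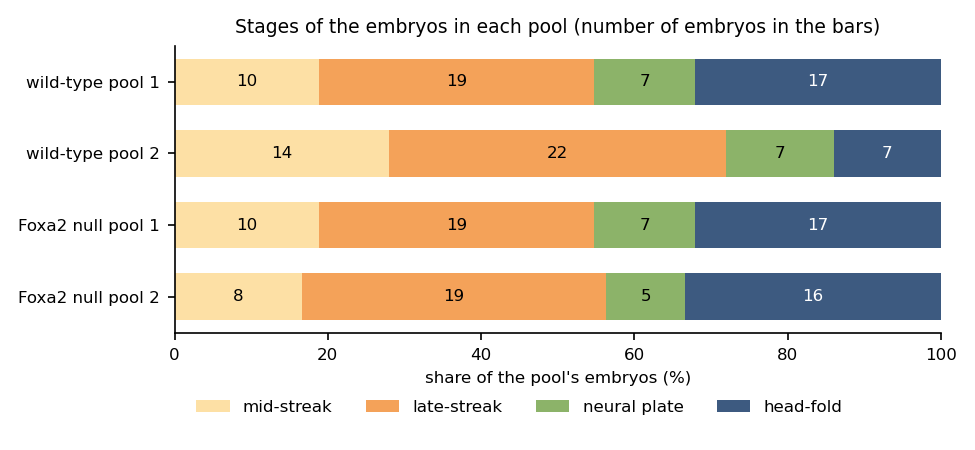
Share of the embryos of each pool at each stage (horizontal axis, percent), with the number of embryos written in the bars. Head-fold embryos are 32.1% of wild-type pool 1 and 14% of wild-type pool 2, against 32.1% and 33.3% in the Foxa2 null pools.

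During gastrulation epiblast cells pass through the primitive streak at the posterior of the embryo and leave it as mesoderm and definitive endoderm. From the mid-streak to the head-fold stage the streak reaches full length, the node forms at its tip, the neural plate is laid down, and cells that left the streak early become heart, vessel and blood precursors. Genes of the epiblast and of the early streak, such as Eomes and Nodal, are known to be switched off as this proceeds, while Hox genes, heart muscle genes and vessel genes are known to come on.

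Values are log2 of the signal of 1 probe set per gene, a set of short probes against 1 transcript. Levels of different genes are not compared, because probe sets differ in brightness. A difference is always pool 2 minus pool 1 on the log2 scale, so a positive value is higher in the younger wild-type pool, and a pair of differences is U74Av2 first and MOE430v2 second. Signals joined by "against" are pool 1 and then pool 2. A gene was counted where it differed by 1.5-fold or more in the same direction on both platforms, which is 0.58 on the log2 scale. The platforms measured the same extracts, so agreement between them speaks to the measurement and not to a further pool. In pooled tissue, fewer cells of a type and less RNA per cell cannot be told apart.

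Both wild-type pools carried the markers of the labelled tissue. Pou5f1, the transcription factor that defines the pluripotent epiblast, had log2 signals of 10.45 and 10.65 in pools 1 and 2 on U74Av2 and 11.98 and 12.27 on MOE430v2. Utf1, another epiblast gene, gave 7.68 against 8.10 on U74Av2 and 9.70 against 10.57 on MOE430v2. The labels name epiblast only. By the study's methods visceral endoderm, described there as tetraploid-derived, was kept with the embryo proper at dissection. Markers of the visceral endoderm, the outer layer that feeds the epiblast, were also bright. Apoa1, which encodes a lipoprotein of the visceral endoderm, gave 11.13 against 11.08 on U74Av2, and Ttr, a thyroid hormone carrier, gave 13.89 and 14.09 on MOE430v2.

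Markers of the visceral endoderm and of tissues outside the embryo proper were compared by their summed signals. The visceral endoderm list had 20 of 26 genes measured on U74Av2, with summed signals of 14129 in pool 1 and 13613 in pool 2, and 23 genes on MOE430v2, with 101323 and 104214. Its median difference was -0.11 and 0.01 in wild-type and -0.43 and -0.48 between the Foxa2 null pools. The trophoblast list had 7 and 10 of 18 genes measured, with summed signals of 614.6 and 466.4 on U74Av2 and 3523 and 3471 on MOE430v2, and the probe sets of its defining markers Elf5, Tpbpa and Rhox6 were all below the filter on low signals. The decidua list had 6 and 10 of 18 genes measured, with sums of 214.6 and 212.1 and of 1376 and 1165, and Gzmd was below the filter on both platforms. Median differences were -0.45 and 0.00 for the trophoblast list, -0.36 and -0.41 for the decidua list and -0.19 and -0.29 for the parietal endoderm list, which lie as far from 0 as those of some embryonic lists described below. The part of these tissues in the results below was not tested.

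Over 5933 genes measured on both platforms, 57 were higher in wild-type pool 2 by 1.5-fold or more on both (0.961%) and 44 were lower (0.742%). The nearly equal Foxa2 null pools gave 63 higher (1.06%) and 61 lower (1.03%). The wild-type pools, which differed in stage, thus gave fewer genes past the threshold than the pools of like staging did, but not under every setting. With no filter on low signals the counts were 192 and 192 against 202 and 174, and at 2-fold they were 13 and 11 against 14 and 10. With each array centred on its median the wild-type counts were 46 higher and 54 lower, so which direction held more genes depends on the scaling.

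Agreement between the platforms was limited. In wild-type 3404 of 5933 genes (57.4%) had the same sign on both, and the differences on U74Av2 and MOE430v2 correlated across genes with a Pearson r of 0.16, against 3438 genes (57.9%) and 0.20 in the Foxa2 null pools. Of the 149 genes past 1.5-fold on both platforms in either direction, 101 (67.8%) had the same sign in wild-type, and so did 124 of 173 (71.7%) in the Foxa2 null pools. Signals themselves correlated at 0.963 on U74Av2 and 0.957 on MOE430v2 between the wild-type pools across genes, against 0.968 and 0.960 between the Foxa2 null pools. Genes are not independent replicates, and these values describe the arrays.

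**Figure D2:**
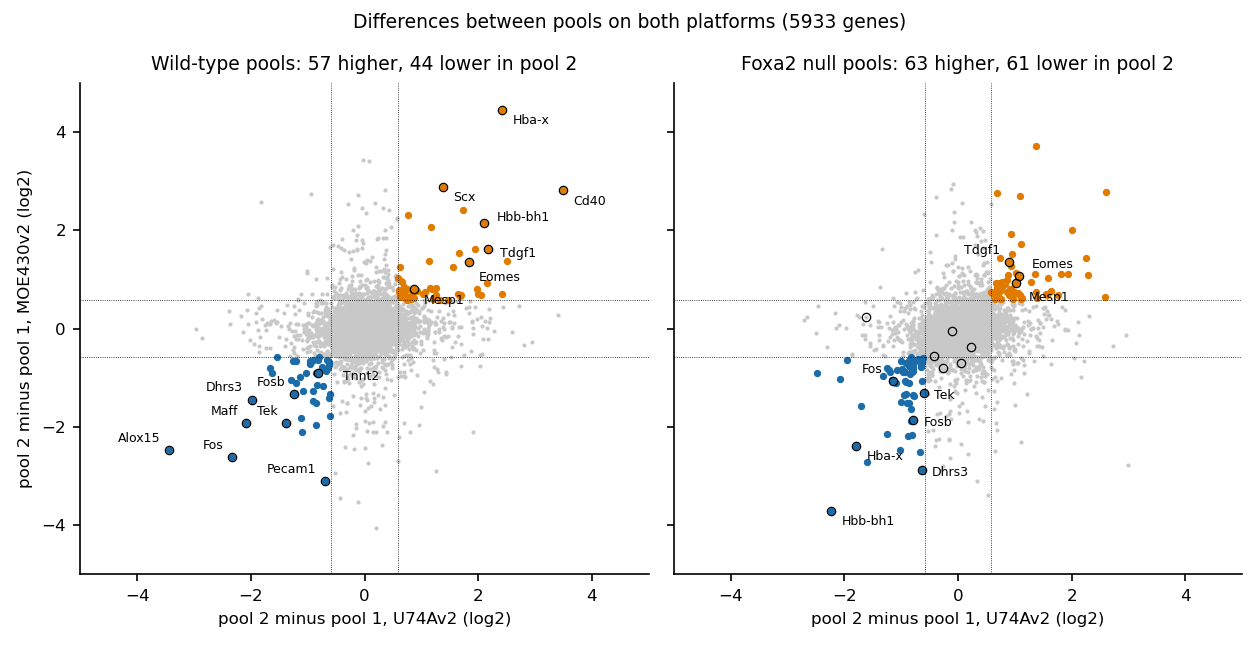
Difference between pool 2 and pool 1 on U74Av2 (horizontal axis, log2) against MOE430v2 (vertical axis, log2) for 5933 genes, 1 point per gene, for the wild-type pools on the left and the Foxa2 null pools on the right. Coloured points are past 1.5-fold in the same direction on both platforms (dotted lines), and circles mark the same 15 genes in each panel, named where past the threshold. Hba-x and Hbb-bh1 lie at the upper right in wild-type and at the lower left in the Foxa2 null pools, while Tdgf1, Eomes and Mesp1 lie at the upper right in both.

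The position of the wild-type pools among all 4 pools was also read. The genes were chosen for a difference between the wild-type pools, so a lowest or highest wild-type pool is partly fixed by that choice. No share over other genes stands beside these counts, which describe the counted genes alone. Of the 57 genes higher in wild-type pool 2, 34 were lowest in wild-type pool 1 among the 4 pools on both platforms, 15 were highest in wild-type pool 2, and 6 were both. For the 44 genes lower in wild-type pool 2, 21 were highest in wild-type pool 1, 17 were lowest in wild-type pool 2, and 5 were both. In 26 of the 57 and 17 of the 44 the dimmer wild-type pool lay below the filter level, 3.94 on U74Av2 or 5.77 on MOE430v2, on at least 1 platform, so the size of those differences is uncertain. On both platforms this held for 7 higher genes (Cd40, Dntt, Gfap, Itga2, Lgals3bp, Pou2f2 and Slc6a18) and 4 lower ones (Alox15, Maff, Nrbp2 and Pecam1). Tdgf1, Tek, Dhrs3 and Fos were among those below it on U74Av2. Cd40, a receptor known from antigen-presenting cells, gave log2 signals of 1.58 in wild-type pool 1, 5.08 in wild-type pool 2 and 5.05 and 4.94 in the Foxa2 null pools on U74Av2. Its signals on MOE430v2 were 4.89, 7.71, 7.21 and 7.16. Pool 1 was the low one on both platforms, below the filter level, and the wild-type difference was 3.49 and 2.81 against -0.11 and -0.05 between the Foxa2 null pools. Its other MOE430v2 probe sets, below the filter, gave -0.48 and 0.37.

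Eomes and Mesp1 of the early primitive streak and the Nodal co-receptor gene Tdgf1 were higher in the younger pool. Eomes, a T-box factor needed for mesoderm and endoderm to leave the epiblast, gave 4.44 in wild-type pool 1 and 6.27 in pool 2 on U74Av2, and 8.52 and 9.87 on MOE430v2. Tdgf1, which encodes Cripto, gave 2.35 against 4.52 on U74Av2 and 6.57 against 8.19 on MOE430v2. Mesp1, which marks the first cardiac and cranial mesoderm, gave 6.93 against 7.80 on U74Av2 and 9.60 against 10.40 on MOE430v2. In each of these genes pool 1 was the lowest of all 4 pools on both platforms.

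The differences in wild-type were 1.83 and 1.35 for Eomes, 2.17 and 1.62 for Tdgf1, and 0.86 and 0.80 for Mesp1, on U74Av2 and MOE430v2 in that order. All 4 probe sets of Eomes were higher in pool 2. The Foxa2 null pools, of like staging, differed in the same direction, by 1.08 and 1.07 for Eomes, 0.90 and 1.35 for Tdgf1, and 1.02 and 0.93 for Mesp1. Foxa2 null pool 2 held the highest signal of all 4 pools for each of the 3 genes on both platforms.

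As a group, 12 of 17 measured genes of the primitive streak and nascent mesoderm list were above 0 on U74Av2 and 16 of 21 on MOE430v2, with medians of 0.24 and 0.28. Over all genes the median was 0.00 on U74Av2 and 0.02 on MOE430v2, and 50.0% and 52.0% of genes were above 0. The same list had medians of 0.44 and 0.64 in the Foxa2 null pools, and 6 of its 16 genes on both platforms were past the threshold there, against 2 in wild-type. Fgf8, which drives cells out of the streak, differed by 0.87 on U74Av2 and 0.19 on MOE430v2. Mixl1, a homeobox gene of the streak measured on MOE430v2 alone, gave 8.84 and 9.72, a difference of 0.88. Snai1, the repressor of E-cadherin in cells that leave the streak, differed by 0.25 on U74Av2 and 1.18 on MOE430v2. Tbx6, needed for paraxial mesoderm, was level at -0.09 and 0.00, and Wnt8a was lower by -0.20 and -0.32.

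Epiblast genes lay on the same side on MOE430v2, with 14 of 17 above 0 and a median of 0.35, and less clearly on U74Av2, with 6 of 10 and a median of 0.14. Nanog, a pluripotency factor still present in the posterior epiblast, differed by 0.43 on U74Av2 and 0.50 on MOE430v2. Utf1 differed by 0.42 and 0.87, and Pou5f1 by 0.20 and 0.29. Sox2, which stays on in the neural plate, went the other way at -0.13 and -0.25. Sall4 was level at -0.02 and 0.00, and so was Cdh1 at 0.08 and -0.09. The platforms disagreed on Dppa4, at -1.90 and 0.32, and on Dppa5a, at -0.38 and 0.68. Zfp42, measured on MOE430v2 alone, was lower by -0.80. In the Foxa2 null pools the list medians were 0.65 on U74Av2 and 0.24 on MOE430v2.

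Among Nodal pathway genes measured on both platforms, 1 of 11 was past the threshold upward, Tdgf1, and 1 downward, Smad2. Nodal, the ligand, differed by 0.24 and 0.48. Smad2, the receptor-activated transducer of Nodal, gave 7.32 against 6.02 on U74Av2 and 9.46 against 8.41 on MOE430v2, a difference of -1.30 and -1.05, but its other MOE430v2 probe set gave 0.54. Between the Foxa2 null pools Smad2 differed by -0.35 and 0.29. The list medians had opposite signs, -0.16 on U74Av2 and 0.34 on MOE430v2.

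Lfng, a glycosyltransferase that tunes Notch receptors in the presomitic mesoderm, was also past the threshold. It gave 3.79 against 5.49 on U74Av2 and 9.22 against 9.91 on MOE430v2, a difference of 1.71 and 0.69 against 0.66 and 0.65 between the Foxa2 null pools. Its other MOE430v2 probe set, below the filter, gave -2.30 in wild-type. The paraxial mesoderm list, Lfng included, had 2 of 10 above 0 on U74Av2 and 9 of 16 on MOE430v2, with medians of -0.14 and 0.11. Of its 10 genes measured on both platforms, 2 were above 0 on both and 5 were below 0 on both.

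Node and notochord genes were higher in the younger pool by their medians, 0.16 on U74Av2 and 0.36 on MOE430v2, against 0.16 and 0.15 between the Foxa2 null pools. On MOE430v2, 7 of 16 were higher by 1.5-fold or more, and so were 9.69% of all 14180 genes on that platform. None of the 9 genes measured on both platforms was past the threshold on both. Foxa2, the forkhead factor that the node requires, gave 7.37 against 8.08 on U74Av2 and 9.62 against 10.17 on MOE430v2. Foxa2 is the gene deleted in the other pools, where its probe sets still gave 6.39 against 6.55 and 8.96 against 9.06, lower than in wild-type on both platforms. Foxj1, which switches on motile cilia, differed by 0.38 and 1.85. Cer1, a secreted Nodal and Bmp antagonist, differed by 0.48 and 0.85, and Shh, the notochord ligand, by -0.09 and -0.35. Cer1 was counted in the node list here, although the study classes it as a definitive endoderm marker. The definitive endoderm list, which lacks Cer1, was evenly split, with 6 of 13 above 0 on U74Av2 and 9 of 18 on MOE430v2.

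Hba-x and Hbb-bh1, globins of primitive blood, were higher in the younger wild-type pool and lower in pool 2 of the Foxa2 null embryos. The promoter of Hba-x, the embryonic alpha-type globin, is shown because that gene was past the threshold in opposite directions in the wild-type and the Foxa2 null pools. The sequence is the 150 bases before the RefSeq start of Hba-x on GRCm38.p6, chr11:32276450-32276599, plus strand, with matches to GATAA (the core bound by Gata factors), CACCC (the core bound by Klf factors) and TATAAA in capitals.

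Hba-x: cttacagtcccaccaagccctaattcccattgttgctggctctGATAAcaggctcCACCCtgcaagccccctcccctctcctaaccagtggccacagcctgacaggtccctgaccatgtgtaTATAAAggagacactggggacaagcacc

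Both strands were searched, and the matches start at -107, -95 and -28 from the start site. Of 32851 promoter windows of the same length, 13.3% held GATAA, 37.4% held CACCC and 7.57% held TATAAA. A match describes the letters and not binding.

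Hba-x gave log2 signals of 5.11 in wild-type pool 1 and 7.53 in pool 2 on U74Av2, and of 3.36 and 7.82 on MOE430v2. Hbb-bh1, the embryonic beta-type globin, gave 4.78 against 6.89 on U74Av2 and 7.51 against 9.65 on MOE430v2. The younger pool was high for both globins, with differences of 2.42 and 4.45 for Hba-x and 2.11 and 2.14 for Hbb-bh1. The other MOE430v2 probe sets of Hbb-bh1 gave 2.30 and 1.97. Hba-x in pool 1 lay below the MOE430v2 filter level of 5.77, so the size of its difference there is uncertain. In the Foxa2 null pools, of like staging, Hba-x differed by -1.79 and -2.38, closer to level than in wild-type on both platforms. Hbb-bh1 differed there by -2.23 and -3.71, further from level than in wild-type on both. The region outside the embryo proper was cut off by dissection. The part of any such tissue left in a pool in the globin values was not tested.

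The rest of the primitive blood list had no common direction. Hba-a1, an adult-type alpha globin whose sequence is nearly shared with a neighbouring copy, was past the threshold at 0.75 and 0.81 in wild-type and differed by -0.63 and 0.46 between the Foxa2 null pools. Hbb-y, an embryonic beta-type globin measured on U74Av2 alone, went the other way, from 5.18 to 3.74, a difference of -1.43 against -0.65 between the Foxa2 null pools. In all, 6 of 12 list genes were above 0 on U74Av2 and 7 of 10 on MOE430v2. Gata1, the erythroid master regulator, gave 5.10 against 4.82 on U74Av2 and 6.86 against 7.73 on MOE430v2, with opposite signs. Lmo2 and Tal1, which act before the globins in blood and vessel precursors, were at 0.02 and -0.25 and at -0.46 and -0.26. The list medians were -0.08 and 0.19 in wild-type and -0.44 and -0.70 in the Foxa2 null pools.

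Fos and Fosb were past the threshold among the immediate early genes, which are known to respond quickly to growth factors and to handling of tissue, and both were lower in the younger pool. The promoters of Fos and Fosb are shown because both genes were lower in pool 2 of either genotype on both platforms. Each sequence is the 150 bases before the RefSeq start on GRCm38.p6, chr12:85473740-85473889 on the plus strand for Fos and chr7:19310046-19310195 on the minus strand for Fosb. Matches to the motifs searched above and to TGACG, the core of the cyclic AMP response element, are in capitals.

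Fos: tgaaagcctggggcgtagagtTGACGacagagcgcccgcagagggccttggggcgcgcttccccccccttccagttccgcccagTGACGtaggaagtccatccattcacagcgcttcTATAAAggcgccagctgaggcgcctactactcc

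Fosb: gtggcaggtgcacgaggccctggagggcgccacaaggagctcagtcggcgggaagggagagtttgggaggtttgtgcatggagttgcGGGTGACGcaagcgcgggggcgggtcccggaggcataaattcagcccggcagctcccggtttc

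TGACG starts at -129 and -66 from the start of Fos, which also has TATAAA at -33, and at -60 from the start of Fosb, where it overlaps a minus-strand CACCC at -63. TGACG was held by 13.3% of the 32851 windows.

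Fos gave log2 signals of 5.78 in wild-type pool 1 and 3.45 in pool 2 on U74Av2, and of 9.24 and 6.62 on MOE430v2. The Foxa2 null pools gave 8.59 against 7.45 on U74Av2 and 11.54 against 10.47 on MOE430v2. Wild-type pool 2 was the lowest of the 4 pools on both platforms, and pool 2 was below pool 1 in either genotype, by -2.34 and -2.62 in wild-type and -1.14 and -1.08 in the Foxa2 null pools. The other U74Av2 probe set of Fos, below the filter, gave 0.85 in wild-type. Fosb differed by -1.25 and -1.34 in wild-type and by -0.79 and -1.87 in the Foxa2 null pools. Maff, a small basic leucine zipper factor, gave 4.67 against 2.58 on U74Av2 and 7.32 against 5.40 on MOE430v2, and differed by -0.41 and -0.55 between the Foxa2 null pools. Fosb and Maff were also lowest in wild-type pool 2 on both platforms.

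The other immediate early genes were mixed. Of the list, 13 of 18 were below 0 on U74Av2 and 14 of 21 on MOE430v2, with medians of -0.16 and -0.09 in wild-type and -0.29 and -0.32 in the Foxa2 null pools. Egr1 differed by -0.85 and -0.13, Dusp1 by 0.08 and -0.50, and Ier2 by -0.13 and -0.29. Jun, the partner of Fos, went from 5.23 to 2.26 on U74Av2 and from 8.46 to 8.45 on MOE430v2, so the platforms disagreed on it. On MOE430v2, 3 list genes were higher by 1.5-fold or more and 5 were lower, with Egr3 at 1.77, Atf3 at 0.85 and Btg2 at 0.83 the higher ones. How the pools were handled, and its part in these values, was not tested.

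Vessel genes were lower in the younger pool where they passed the threshold. Tek, the angiopoietin receptor of endothelial cells, gave 4.90 against 3.52 on U74Av2 and 8.03 against 6.10 on MOE430v2, a difference of -1.38 and -1.93. Pecam1, an adhesion molecule of the same cells, gave 4.62 against 3.92 on U74Av2 and 6.62 against 3.51 on MOE430v2. Fli1, an Ets factor of vessel and blood precursors, gave 5.14 against 4.22 on U74Av2 and 7.55 against 6.90 on MOE430v2. In the Foxa2 null pools Tek also differed by -0.60 and -1.30, Pecam1 by -0.26 and -0.81 and Fli1 by -0.25 and -0.81, so pool 2 was the lower in either genotype.

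The endothelium list was mixed beyond those 3 genes, with 8 of 15 below 0 on U74Av2 (median -0.34) and 12 of 20 on MOE430v2 (median -0.14). Kdr, the main Vegf receptor, differed by 0.05 and -1.45, and Etv2, which starts the vessel lineage, by 0.21 and 0.01. On MOE430v2 alone, Emcn, an endothelial sialomucin, gave 6.60 and 4.06, a difference of -2.54. The list median turned positive on U74Av2, at 0.09, once the dimmer 50% of probe sets were left out. Fewer of its genes were then measured.

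Heart genes were lower in the younger pool on MOE430v2, with 19 of 28 below 0 and a median of -0.23, and near level on U74Av2, with 10 of 15 below 0 and a median of -0.06. Tnnt2, cardiac troponin T, gave 5.38 against 4.55 on U74Av2 and 8.03 against 7.12 on MOE430v2, and its other MOE430v2 probe sets gave -1.07 and -1.03. Nkx2-5, the homeobox factor of heart progenitors, gave 8.39 and 7.03 on MOE430v2. Actc1, cardiac actin, differed by -0.22 and -0.44, while Myl7, the atrial light chain, was at 0.08 and -0.05. Tnnt2 gave 4.22 and 4.28 in the Foxa2 null pools on U74Av2 and 6.60 and 5.89 on MOE430v2, below both wild-type pools. Its other MOE430v2 probe sets were split in the Foxa2 null pools. The first gave 6.35 and 2.15, also below both wild-type pools. The other gave 6.32 and 6.83, where the wild-type pools gave 6.64 and 5.61.

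The Foxa2 null pools had a heart list median of 0.06 on U74Av2 and -0.23 on MOE430v2, the latter the same as in wild-type. Ryr2, the calcium release channel, and Smyd1, a muscle methyltransferase, were higher in wild-type pool 2 on MOE430v2, by 1.78 and 1.00.

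Posterior patterning genes were lower in the younger pool by their medians, -0.24 on U74Av2 and -0.27 on MOE430v2. Of the Cdx and Hox genes 10 of 16 were below 0 on U74Av2 and 14 of 18 on MOE430v2. Of the 12 measured on both, none was above 0 on both and 5 were below. By 1.5-fold or more, 3 were higher and 2 lower on U74Av2, against 8.08% and 6.02% of all genes. On MOE430v2, 2 were higher and 4 lower, against 9.69% and 7.86%. The platforms disagreed on Hoxd8, at 1.14 and -1.06, and on Hoxd9, at 1.30 and -0.88. Hoxd1 was the member past the threshold, with 5.63 and 4.42 on U74Av2 and 8.07 and 7.41 on MOE430v2. Its other U74Av2 probe set gave -0.05. Cdx1, which sets Hox domains, differed by -0.36 and -0.29 against -0.99 and -0.82 between the Foxa2 null pools. The list medians in the Foxa2 null pools were 0.17 and -0.07.

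Genes of retinoic acid metabolism, a signal made by the trunk mesoderm, were represented by Dhrs3. This enzyme, which reduces retinaldehyde and is itself induced by retinoic acid, gave 5.35 against 3.36 on U74Av2 and 7.82 against 6.37 on MOE430v2. Its difference was -1.99 and -1.45 in wild-type and -0.64 and -2.87 in the Foxa2 null pools. Aldh1a2, which makes retinoic acid, differed by -0.33 and 0.04, and Crabp1, which binds it, by -0.80 and -0.25. The list medians were -0.14 and -0.09 in wild-type and -0.59 and -0.49 in the Foxa2 null pools.

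Extracellular matrix genes of mesenchyme were mostly below 0, with 1 of 11 above 0 on U74Av2 and 2 of 12 on MOE430v2, with medians of -0.29 and -0.42. Vcan, the proteoglycan versican, gave 7.63 against 6.49 on U74Av2 and 10.38 against 9.40 on MOE430v2. All 6 of its probe sets past the filter were lower in the younger pool. Has2, which makes hyaluronan, differed by -0.29 and -0.49, and Col5a2 by -0.26 and -0.38. Between the Foxa2 null pools the list medians were -0.12 and -0.10, and Vcan itself differed there by -1.32 and -0.54.

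Imprinted genes, of which many promote or restrain growth of the embryo, had 13 of 19 below 0 on U74Av2 and 13 of 20 on MOE430v2. The list medians were -0.31 and -0.15 in wild-type and -0.13 and -0.04 in the Foxa2 null pools. Plagl1, an imprinted zinc finger regulator, was the member past the threshold, with 4.38 and 3.75 on U74Av2 and 10.55 and 9.80 on MOE430v2. Igf2, the growth factor, gave 11.64 against 11.33 on U74Av2 and 13.11 against 12.74 on MOE430v2, and Meg3, a maternally expressed non-coding RNA, differed by -0.52 and -0.54. The Foxa2 null pools differed by -0.47 and -0.46 for Igf2 and by -0.91 and -0.70 for Meg3. Xist, the RNA that coats the inactive X chromosome, gave 7.97 against 7.34 on U74Av2 and 12.79 against 12.12 on MOE430v2 in these pools of mixed sex. Between the Foxa2 null pools Xist differed by -0.27 and -0.46. The Y-linked Eif2s3y was at 0.06 and 0.15 in wild-type. It was the only gene above 0 in the Y-linked and X inactivation list, of 3 measured on U74Av2 and 4 on MOE430v2.

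**Figure D3:**
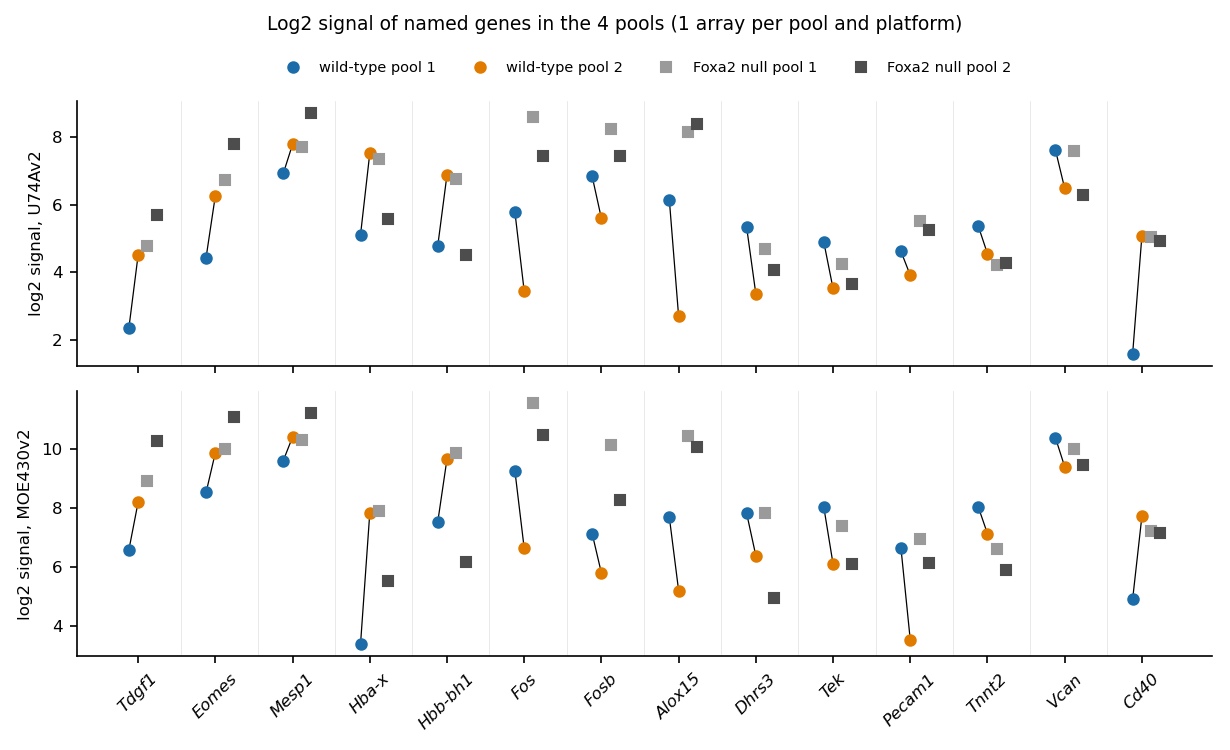
Log2 signal (vertical axis) of 14 named genes in the 4 pools, 1 array per pool, on U74Av2 (top) and MOE430v2 (bottom), with a line from wild-type pool 1 (blue) to wild-type pool 2 (orange) and the Foxa2 null pools in grey squares. Wild-type pool 1 is the lowest of the 4 pools for Tdgf1, Eomes, Mesp1 and Cd40 on both platforms, and wild-type pool 2 is the lowest for Fos, Fosb, Alox15 and Pecam1.

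Alox15, a lipoxygenase that oxidizes polyunsaturated fatty acids, was lower in the younger pool, where it lay below the filter level on both platforms, so the size of its difference is uncertain. It gave 6.14 against 2.70 on U74Av2 and 7.67 against 5.19 on MOE430v2, a difference of -3.44 and -2.48 against 0.22 and -0.37 between the Foxa2 null pools. Its signals there were 8.17 and 8.39 on U74Av2 and 10.44 and 10.07 on MOE430v2, above both wild-type pools. Arg1, which splits arginine into urea and ornithine, was highest in wild-type pool 1 on both platforms and differed by -1.04 and -0.90 in wild-type, and by -1.32 and -0.96 between the Foxa2 null pools.

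Among the other named genes lower in the younger pool, Nr2f2, a nuclear receptor of lateral mesoderm and veins, differed by -1.20 and -1.11 in wild-type and by -0.34 and -2.24 between the Foxa2 null pools, with another MOE430v2 probe set at 0.00 in wild-type. Nrbp2, a pseudokinase, Figla, a helix-loop-helix factor of oocytes, and Kcnab2, a potassium channel subunit, differed by -1.12 and -1.83, -1.09 and -2.11, and -0.90 and -1.27. Kcnab2 also differed by -0.15 and -2.25 between the Foxa2 null pools. Pam, which amidates peptides, had differences of -0.91 and -1.47. Rimklb, a peptide ligase, gave -1.08 and -1.26, but its 3 other MOE430v2 probe sets ranged from -0.78 to 0.44. Ncam1, the neural cell adhesion molecule, was past the threshold at -0.68 and -0.87 with 1 probe set at 0.18, and Ccnd2, a G1 cyclin, stood just inside it at -0.80 and -0.59 with all 8 probe sets below 0.

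Ube2s was also higher in the younger pool. This ubiquitin-conjugating enzyme of the anaphase-promoting complex gave 8.19 in wild-type pool 1 and 9.75 in pool 2 on U74Av2, and 11.89 and 13.16 on MOE430v2. The Foxa2 null pools gave 10.23 against 9.99 on U74Av2 and 13.40 against 13.46 on MOE430v2, so wild-type pool 1 was the low one. Itga2, a collagen-binding integrin, Slc6a18, an amino acid transporter, Lgals3bp, a secreted glycoprotein, and Acss1, a mitochondrial acetate enzyme, were likewise lowest in wild-type pool 1 on both platforms, with differences of 1.73 and 2.42, 1.95 and 1.63, 1.67 and 1.54, and 2.51 and 1.38. Between the Foxa2 null pools Itga2 differed by 0.38 and 0.64 and Acss1 by 0.49 and 1.14. Other MOE430v2 probe sets of Acss1, below the filter, gave -1.59 and 0.65 in wild-type.

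Scx, a helix-loop-helix factor of tendon, Myt1l, a zinc finger factor of neurons, and Gfap, an astrocyte filament, are known from tissues that form later, and their U74Av2 signals in pool 1 were 3.98, 4.73 and 3.61. The median of all U74Av2 probe sets was 5.66, so each lay below it. They differed by 1.38 and 2.89, 1.17 and 2.08, and 1.14 and 1.37. The other probe sets of Myt1l, all below the filter, gave -1.18 and -0.68 on U74Av2 and ranged from -2.98 to 2.00 on MOE430v2. Sergef differed by 1.26 and 0.83. Mfap5, a microfibril protein, gave 2.15 and 0.92, and its other MOE430v2 probe set gave -1.13. Mean wild-type signals lay below the platform median in 38 of 57 higher and 25 of 44 lower genes on U74Av2. On MOE430v2 they did so in 23 and 16. That median is over all probe sets before the filter. No share over all genes stands beside these counts, which describe the counted genes alone. Genes with more than 1 probe set past the filter on a platform numbered 22 of the 57 and 20 of the 44, and in 10 and 11 of them every such probe set had the same sign.

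The genes past the threshold in both genotypes are given here by name, to be read against the shares of all genes printed above. There were 8 higher in pool 2 of either genotype (Calb2, Eomes, Lfng, Mesp1, Prmt1, Reg3b, Sftpc and Tdgf1), 14% of the wild-type list and 12.7% of the Foxa2 null list. Another 6 were lower in pool 2 of either (Arg1, Dhrs3, Fos, Fosb, Rgs11 and Tek), 13.6% and 9.84%. In opposite directions, 5 were higher in wild-type pool 2 and lower in Foxa2 null pool 2 (Hba-x, Hbb-bh1, Ptk7, Slc34a2 and Sypl2), and Cfb and Lag3 were the reverse. Prmt1, an arginine methyltransferase, differed by 0.71 and 0.69 in wild-type and by 2.61 and 2.78 between the Foxa2 null pools. At any size, 23 of 57 (40.4%) and 24 of 44 (54.5%) had the wild-type direction on both platforms in the Foxa2 null pools. The opposite direction on both was held by 11 (19.3%) and 9 (20.5%). Over all 5933 genes, 28.0% were above 0 on both platforms in the Foxa2 null pools, and 57.9% had the same sign on both.

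Just inside the threshold stood Calb2 at 1.32 and 0.59 and Ccnd2, and just outside it Krt71 at 0.88 and 0.58 and Bcl2l2 at -0.62 and -0.58.

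Lists of general cell function lay near 0 in wild-type. The DNA replication and mitosis list had medians of -0.08 and -0.04, glycolysis and hypoxia 0.03 and -0.01, cholesterol synthesis -0.08 and 0.08, and heat shock and chaperones 0.12 and -0.08. Respiratory chain genes were above 0 in 17 of 29 on U74Av2 and 29 of 35 on MOE430v2, with small medians of 0.06 and 0.13. Ribosomal protein genes had medians of 0.11 and 0.05. Signalling lists other than Nodal were also near 0, at 0.06 and -0.03 for Wnt, -0.03 and -0.09 for Fgf, and -0.02 and -0.05 for Bmp and Id genes, and so was the epithelial-mesenchymal transition at 0.04 and -0.11. Neural plate genes had medians of -0.15 and -0.08, and allantois and lateral plate genes -0.22 and 0.00. Primordial germ cell genes, at -0.24 and -0.24, lay about as far from 0 as the Cdx and Hox genes, at -0.24 and -0.27. Of the 6 germ cell genes measured on both platforms, 4 were below 0 on both and none was above. Their medians between the Foxa2 null pools were -0.39 and -0.22. The Y-linked and X inactivation list was at -0.11 and -0.26.

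**Figure D4:**
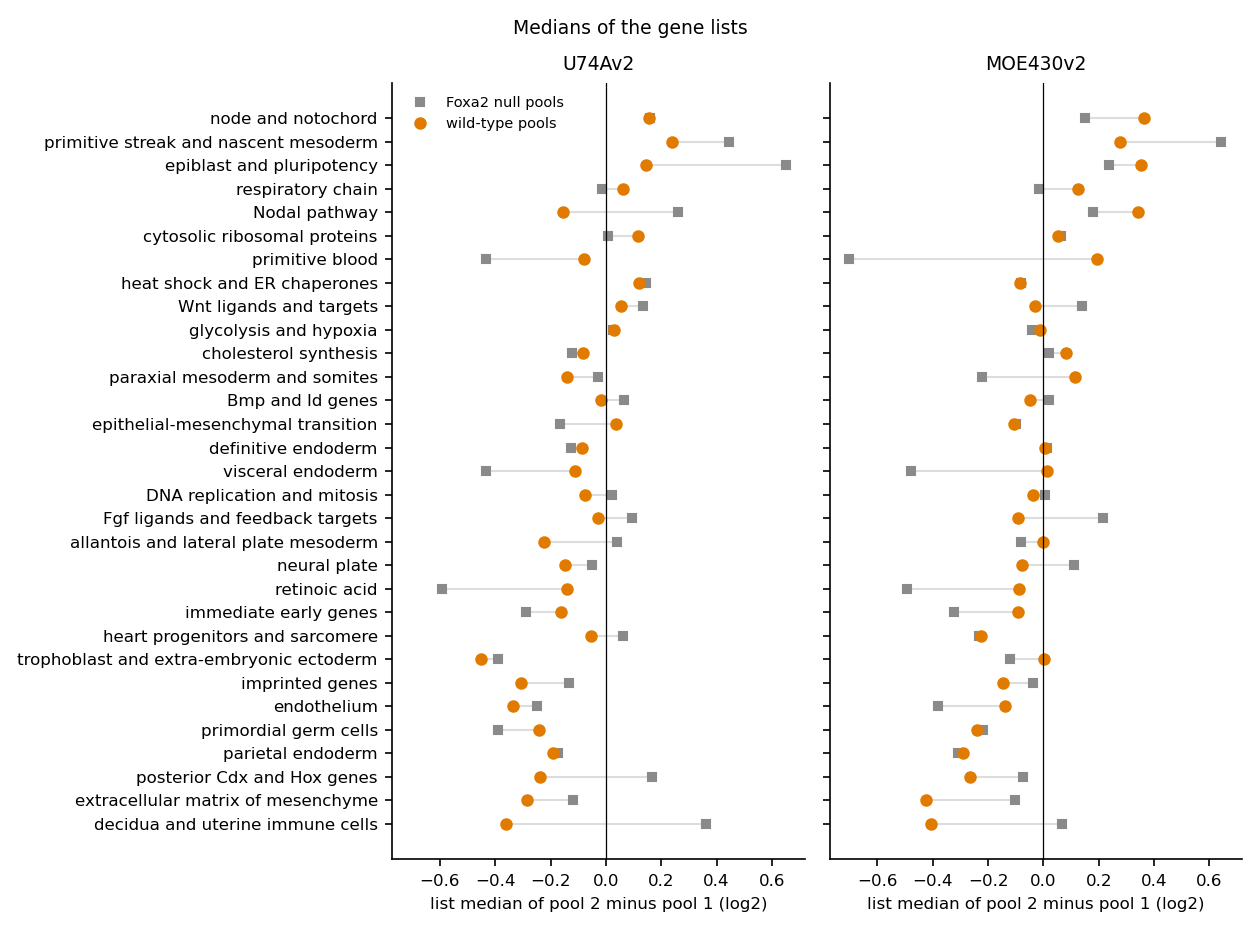
Median of pool 2 minus pool 1 (horizontal axis, log2) for 31 gene lists on U74Av2 (left) and MOE430v2 (right), orange for the wild-type pools and grey for the Foxa2 null pools. In wild-type the streak, epiblast and node lists, among others, lie above 0 on both platforms. The matrix, Cdx and Hox, germ cell and imprinted lists, among others, lie below 0 on both. The streak list lies further from 0 between the Foxa2 null pools, at 0.44 and 0.64, than in wild-type, at 0.24 and 0.28.

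Some list members were measured on MOE430v2 alone. Tbx4, a T-box factor of the allantois, gave 7.88 and 5.51 there, a difference of -2.37 against -2.04 between the Foxa2 null pools. Ddit3, a stress-induced factor, was lower by -2.37, Wnt4 by -2.25 and Wnt2b by -1.87. Higher were Rhox9, an X-linked homeobox gene, by 1.44, and Dnah11, a dynein of motile cilia, by 1.09. The brachyury gene T was not analysed here.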

How the data were processed

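The authors pooled embryos, extracted total RNA and hybridized each extract to 1 U74Av2 and 1 MOE430v2 array. Each deposited intensity is a linear MAS5 signal, brought by the authors to a common level per array. After trimming 2% at each end, array means were 150 on U74Av2 and 500 on MOE430v2, and the deposited MOE430v2 values carry no loess step. Median signals per array were 48.0 to 52.8 and 155 to 165. The number of arrays limits the precision.

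Signals were taken to log2 in R 4.3.3. U74Av2 was used as scaled, and MOE430v2 was normalized over its 4 arrays by cyclic loess (limma 3.58.1). Control probe sets (66 and 64) were removed, as were the dimmest 30% by mean log2, leaving 8695 and 31526. Before that filter 10833 and 34945 probe sets had a single gene symbol, 396 and 932 had several, and 1193 and 9160 had none. A gene was read from its single-gene probe set with the highest mean (6410 and 14180 genes, 5933 on both), with symbols from RefSeq GRCm38.p6. Promoters are from RefSeq, and Hbb-bh1 has no entry shown.

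Named are the 15 genes per direction with the largest smaller-of-2 difference, list members past the threshold, up to 4 bright members of a described list, and 5 MOE430v2-only list members per direction. The 32 lists and their members were chosen with earlier results of these data known. Genes of the overlap with the Foxa2 null pools, those at the threshold, and any list member named outside this rule were chosen after their values were seen. Another 9 settings were run, and 1 more was chosen after seeing the data.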

Additional observations from a re-analysis of the deposited data

How the results depend on the processing

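No paired analysis was possible because each stage mix is 1 pool and the results come from no test, and leaving out a pool leaves no difference. Without a filter on low signals 192 genes were higher and 192 lower in wild-type pool 2, and 202 and 174 in Foxa2 null pool 2, of 8108 genes. With the lowest 50% of probe sets left out the counts were 16 and 20, and 24 and 29, of 4545. With an offset of 20 before log2 they were 29 and 26, and 40 and 37. At 2-fold they were 13 and 11, and 14 and 10. Median centring of every array gave 112 genes lower in Foxa2 null pool 2, where it moved the median of all U74Av2 genes to -0.11, and in wild-type it turned 57 higher and 44 lower into 46 and 54. Requiring all probe sets of a gene to share a sign, added after seeing the data, gave 45 and 35. The other counts stayed within 1.5 times.

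Of 512 list medians under alternatives 13 moved by more than the spread between the Foxa2 null pools (0.19 on U74Av2, 0.18 on MOE430v2). With the lowest 50% left out, the node list was 0.17 on MOE430v2, and on U74Av2 endothelium was 0.087, primitive blood 0.75 and decidua -0.70. With the mean over probe sets, allantois was -0.29, primitive blood 0.51 and the Y-linked and X inactivation list -0.070 on MOE430v2, and decidua -0.026 on U74Av2. With no filter, endothelium was -0.34 on MOE430v2 and the Y-linked and X inactivation list -0.37 on U74Av2 and -0.47 on MOE430v2. The ribosomal list was 0.28 on MOE430v2 with no loess and 0.26 with median centring. Of 608 values for named genes 1 changed sign, Mfap5 on MOE430v2, at -0.11 with the mean over its probe sets, and 40 moved by more than that spread per gene, 35 of them with the offset. The cause was not tested.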
